A study of Mus musculus with 10 samples.

Results

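This is an account of the lysosomal cathepsins in cultured fat cells of control mice and mice with an adipocyte knockout (KO) of *Fam20c*, the gene of a secretory pathway kinase. It covers 10 of the 56748 genes counted by RNA-seq, chosen by symbol. These are the cysteine proteases *Ctsb*, *Ctsc*, *Ctsf*, *Ctsk*, *Ctsl*, *Ctso* and *Ctsz*, the aspartic protease *Ctsd*, the serine carboxypeptidase *Ctsa*, and *Cst3*, which encodes the secreted cathepsin inhibitor cystatin C. *Ctsh*, which was lower in KO in these data, was not among them. The members were chosen with earlier results of these data known, so the counts of calls below describe this selection without *Ctsh*. The cultures were primary differentiated adipocytes, grown from the inguinal stromal vascular fraction (SVF) of males aged 6 to 8 weeks and given 6 to 8 days to differentiate. The 5 control cultures carried Fam20c-flox alleles alone, and the 5 KO cultures carried Fam20c-flox and Adipoq-Cre. The floxed line had been backcrossed to C57BL/6J. The adiponectin promoter drives Cre in adipocytes, so any other cell type of the SVF in the dish would keep its floxed allele intact. The labels and the study's methods do not say whether each culture came from its own mouse, and p-values measure the spread between these cultures, which may be technical.

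Cathepsins are made as inactive proenzymes in the endoplasmic reticulum, carried to the lysosome largely by mannose 6-phosphate receptors, and activated there at low pH, where they degrade proteins delivered by endocytosis and autophagy. Some also act outside cells: cathepsin K is best known for cleaving collagen in bone, and cystatin C blocks cysteine cathepsins that leave the lysosome. In fat, cathepsins have been studied in adipocyte differentiation, in turnover of the matrix around fat cells and in the macrophages of obese tissue. The comparison asked whether loss of *Fam20c* in adipocytes was accompanied by a change in transcripts of these enzymes and their inhibitor.

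Several lysosomal genes are known to be regulated by TFEB, a transcription factor that recognises the E-box CACGTG within a longer element. The promoter letters around this E-box are shown because the genes are read as a group in what follows. RefSeq promoter windows on GRCm38.p6, running from 250 bases before to 50 bases after a start site, were present for 9 of the 10 genes. *Ctsb* had no window and was not searched. *Ctsa* had 2 windows. CACGTG, which reads the same on both strands, was found for 4 of the 9 genes, against 8.09% of 27025 genes with such a window. The matches below are on the strand of the gene, with the E-box in capitals, and a match near the edge of its window is shown up to that edge.
Ctsa, chr2:164833749-164833778, match 12 bases before the start of its second window: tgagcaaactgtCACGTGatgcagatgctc
Ctsa, chr2:164833766-164833795, match 5 bases after the same start: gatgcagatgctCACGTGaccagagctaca
Ctsd, chr7:142387908-142387937, match 98 bases before the start: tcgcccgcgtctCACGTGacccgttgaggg
Ctsd, chr7:142388055-142388077, match 245 bases before the start: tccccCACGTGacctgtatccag
Ctsf, chr19:4855074-4855103, match 79 bases before the start: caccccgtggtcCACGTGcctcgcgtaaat
Ctsl, chr13:64370739-64370768, match 236 bases before the start: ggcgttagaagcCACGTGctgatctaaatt
Flanked by T and A, as TCACGTGA, the E-box occurred in windows of 2 genes, *Ctsa* and *Ctsd*, against 1.12% of genes, and with a further G before and C after these letters it occurred for 0 of the 9, against 0.37%. The starts are those of RefSeq. By the GENCODE M21 annotation, both *Ctsa* matches, the *Ctsl* match and the *Ctsd* match nearer the start lie inside the annotated gene. No binding was measured here, so these are matches of letters only.

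Libraries held 18949106 to 26237825 counts. Control library 4 and KO library 1 stood apart from the others on the leading principal component, which held 23.5% of the variance. *Fam20c*, counted over the whole gene, was 8.86 to 11.9 CPM (reads of a gene relative to the library size scaled by TMM) in control and 6.65 to 7.74 CPM over the KO cultures, a log2 fold change of -0.49 (adjusted p = 0.0137). With edgeR's quasi-likelihood test and Benjamini-Hochberg adjustment over 14270 genes, 309 genes passed the limit of 0.05. Of 15 adipocyte markers 0 passed, and 12 had a positive log2 fold change, with a median of 0.05. Their summed level was 45732 to 47009 CPM in the controls and 47542 to 49701 CPM over the KO cultures. Much of this sum was *Fabp4*, at 20805 ± 357 CPM in the controls and 22552 ± 945 CPM over the KO cultures (SD, n = 5). Of 20 endothelial markers 17 were lower in KO, with a summed level of 227 to 272 CPM in the controls and 108 to 149 CPM over the KO cultures. Of 14 progenitor and fibroblast markers 7 were lower, with summed levels of 8292 to 10712 and 6971 to 8247 CPM. Of 19 macrophage markers tested 1 was lower, *Cd163*, and the summed macrophage level overlapped, at 1753 to 2639 CPM in the controls and 1516 to 2477 CPM over the KO cultures. No marker in these lists was at 0 in all libraries, and *Cx3cr1*, with at most 5 counts, was the only one too low to test. In such bulk cultures, fewer cells of a type and less RNA per cell cannot be told apart, and the part of these marker shifts in the results that follow was not tested.

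These cathepsins, chosen without *Ctsh*, and *Cst3* were abundant, and none changed detectably between control and KO cultures. All 10 passed the filter on low counts, with 808 to 52555 counts per library, and 0 of 10 passed the adjusted limit, where 2.17% of all genes tested did. Of the 10, 0 had an unadjusted p under 0.05 by edgeR, against 11.9% of all genes. At the adjusted limit DESeq2 called 3.39% of all genes, and limma voom called 347 lower and 111 higher of 14270. Both tools gave 0 members at this limit. They also gave 0 members at the unadjusted limit, where their shares over all genes were not counted. Control and KO libraries overlapped for each of the 10, and 3.97% of all genes had libraries that did not overlap. At such shares, counts of 0 among only 10 genes do not set the members apart from other genes. The log2 fold changes ran from -0.04 for *Ctsd* to 0.15 for *Ctsk*, 8 above and 2 below 0. Their median was 0.034, beside -0.001 over all genes, and their median size was 0.0359, beside 0.0717 over all genes.

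The intervals of these genes were narrow. The median standard error was 0.0562 on the log2 scale, against 0.0837 for all genes tested, and the median biological coefficient of variation was 6.88%, against 8.27%. By level per kb of exon, these genes stood at percentiles 69.5 to 99.2 of the genes tested. Comparisons with all genes, also for the median size of change above, thus set unlike levels side by side. Among other lysosomal genes, standard errors were 0.0424 for *Lamp1*, 0.0556 for *Npc2* and 0.0907 for *Lgmn*. *Lamp1* and *Npc2* thus lay below the median of all genes and *Lgmn* above it. Narrow intervals were therefore not particular to the cathepsins, and not shared by every lysosomal gene. For 9 of the genes the 95% interval of the KO against control difference lay between -0.15 and 0.19 on the log2 scale. *Ctsk* was the exception, with an upper bound of 0.37.

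**Figure D1:**
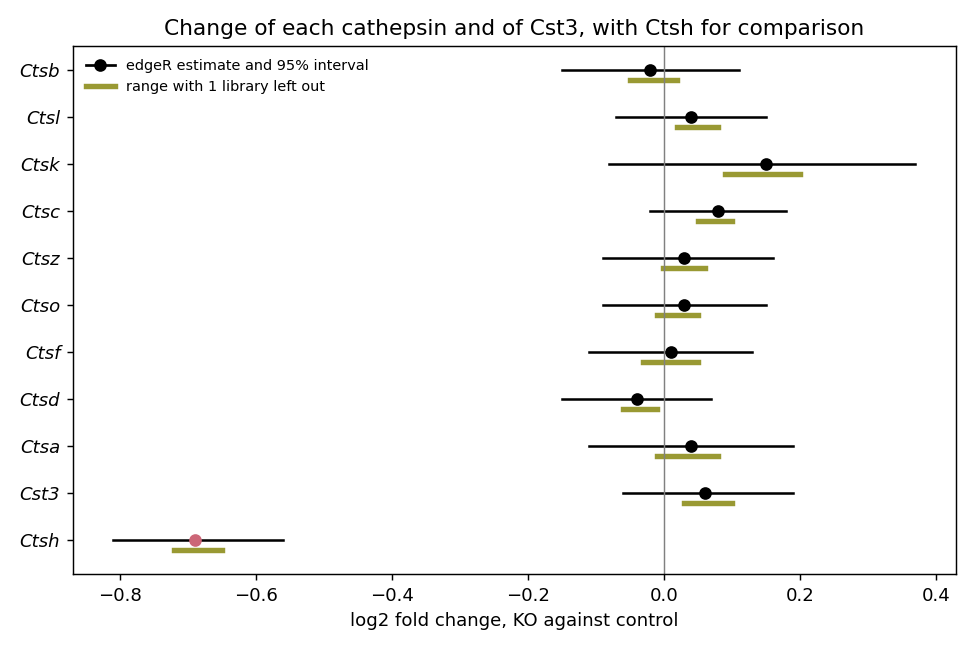
Log2 fold change in KO against control cultures (x axis) for each cathepsin gene, Cst3 and Ctsh (y axis). Points are edgeR estimates with 95% intervals in black, and the thick lines below give the range when 1 library is left out; each of the 10 black points lies between -0.04 and 0.15 with an interval that includes 0, and Ctsh lies at -0.69.

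Among the cysteine proteases, *Ctsb* (chromosome 14, 63122462 to 63145923) was the most abundant. Cathepsin B cleaves proteins internally and also removes dipeptides from their carboxyl ends. *Ctsb* had 2046, 1971, 2214, 2054 and 2072 CPM over control cultures 1 to 5, and 2236, 1863, 2102, 2137 and 1869 CPM over KO cultures 1 to 5. The highest and the lowest of these 10 values were both KO libraries, which enclosed the control range. The means were 2071 ± 88.8 and 2041 ± 167 CPM (SD, n = 5), and the log2 fold change was -0.02 (standard error 0.0586, 95% interval -0.15 to 0.11, adjusted p = 0.949). In percent, the interval ran from -9.75% to 7.62%.

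*Ctsl* (chromosome 13, 64359337 to 64370890) encodes cathepsin L, a strong endopeptidase of the lysosome. It had 517, 548, 597, 516 and 565 CPM over the control cultures, and 545, 549, 603, 589.6 and 539 CPM over the KO cultures. KO library 3 exceeded each control, and the other 4 KO libraries lay within the control range. The log2 fold change was 0.04 (standard error 0.051, 95% interval -0.07 to 0.15, adjusted p = 0.844).

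*Ctsk* (chromosome 3, 95499256 to 95509362), the collagen-cleaving cathepsin K, was the member that varied most between cultures. Its level was 97.8, 97.4, 135, 121 and 134 CPM over the control cultures, and 149, 116, 131, 133 and 117 CPM over the KO cultures. Control libraries 1 and 2 were low and KO library 1 was high, while the other libraries of both groups lay together. The coefficient of variation was 15.8% in control and 10.3% in KO cultures, against 4.16% to 9.64% for the other members in either group. The log2 fold change of 0.15 (standard error 0.102, 95% interval -0.08 to 0.37, adjusted p = 0.665) did not exceed this spread (2-sided exact permutation test, p = 0.27), and the interval still allowed 28.9% more in KO. It was 0.09 without control library 1, control library 2 or KO library 1, reached 0.20 without control library 3 or 5, and was 0.10 without both control library 4 and KO library 1, with no call in any of these.

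*Ctsc* (chromosome 7, 88278085 to 88310888) encodes the dipeptidyl peptidase that activates granule serine proteases of immune cells. It had 192, 171, 176, 192 and 188 CPM over the control cultures, and 199.96, 201, 194, 194 and 180.4 CPM over the KO cultures. In KO, 4 of the 5 libraries lay above each control library, and KO library 5 lay among them. *Ctsc* had the lowest p of the 10 genes, and its log2 fold change of 0.08 did not pass (standard error 0.0459, 95% interval -0.02 to 0.18, adjusted p = 0.577; 2-sided exact permutation test, p = 0.111). The smallest p that 5 libraries against 5 can give is 0.00794.

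The other cysteine proteases were *Ctsz*, *Ctso* and *Ctsf*. *Ctsz* (chromosome 2, 174427493 to 174439039), a carboxypeptidase that removes single residues, had 185 to 217 CPM in the controls and 194 to 227 CPM over the KO cultures, a log2 fold change of 0.03 (95% interval -0.09 to 0.16). *Ctso* (chromosome 3, 81932601 to 81956725) had 47.9 to 56.8 CPM in the controls and 50.8 to 56.8 CPM over the KO cultures, a log2 fold change of 0.03 (95% interval -0.09 to 0.15). *Ctsf* (chromosome 19, 4855130 to 4860918) had 42.4 to 52.0 CPM in the controls and 45.9 to 50.8 CPM over the KO cultures, a log2 fold change of 0.01 (95% interval -0.11 to 0.13). For *Ctso* and *Ctsf* the KO cultures spread less than the control cultures, with SDs of 2.40 against 3.88 CPM and 1.99 against 3.48 CPM; the difference in spread was not tested.

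*Ctsd* (chromosome 7, 142375911 to 142388038), the aspartic protease cathepsin D, was the second most counted member. It had 734, 753, 845, 788 and 836 CPM over the control cultures, and 826, 724, 791, 765 and 753 CPM over the KO cultures. Its log2 fold change of -0.04 (standard error 0.0512, 95% interval -0.15 to 0.07, adjusted p = 0.88) was within the spread. *Ctsa* (chromosome 2, 164832873 to 164841032) encodes a carboxypeptidase that also protects the lysosomal enzymes beta-galactosidase and neuraminidase from breakdown. It had 223, 229, 253, 269 and 238 CPM over the control cultures, and 282, 226, 262, 244 and 227 CPM over the KO cultures. KO library 1 was the highest of the 10, and the log2 fold change was 0.04 (standard error 0.0691, 95% interval -0.11 to 0.19, adjusted p = 0.92).

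The inhibitor *Cst3* (chromosome 2, 148871722 to 148875692) had 289.7, 318, 346, 306 and 342 CPM over the control cultures, and 345, 304, 327, 355 and 345 CPM over the KO cultures. The groups shared most of their range. The log2 fold change was 0.06 (standard error 0.0577, 95% interval -0.06 to 0.19, adjusted p = 0.762). Set against the summed CPM of the 7 cysteine cathepsins, *Cst3* counts amounted to 9.26% to 10.4% in control and 9.80% to 11.4% in KO libraries. With each gene divided by the kilobases of its exons, the share was 34.6% to 38.5% in control and 35.7% to 40.9% in KO libraries. The groups overlapped on both scales. *Ctsh* and *Ctss* were not in these sums.

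**Figure D2:**
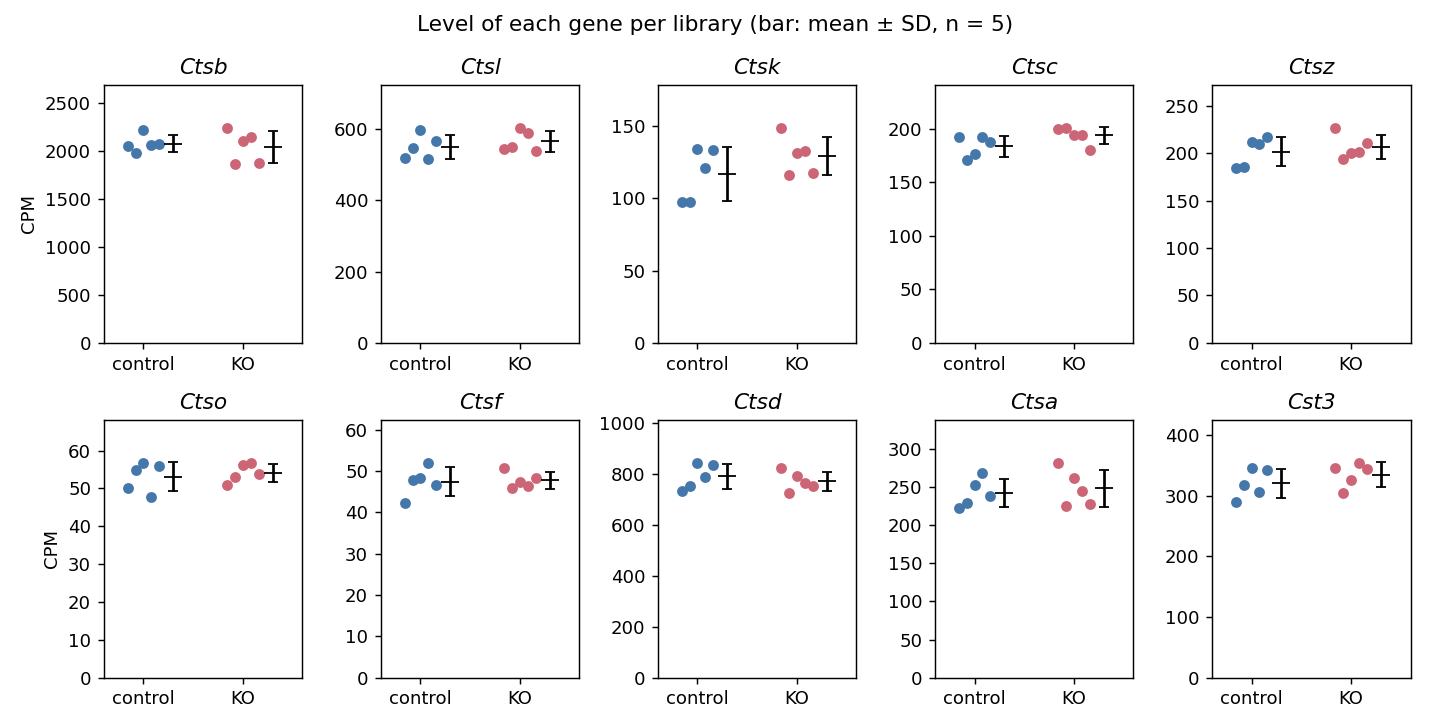
CPM (y axis, starting at 0) of each gene in control and KO libraries (x axis), 1 point per library in the order 1 to 5, with the mean and SD of the 5 libraries beside them. In each of the 10 panels the control and KO points overlap, and Ctsk, from 97.4 to 149 CPM, shows the widest spread relative to its mean.

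Read together, the 10 genes took 0.44% to 0.496% of all counts in control and 0.418% to 0.48% in KO libraries. *Ctsb* supplied 43.0% to 46.7% of these in each library. The 9 cathepsins summed to 4256 ± 197 CPM in the controls and 4258 ± 261 CPM with KO (SD, n = 5). Libraries differed more than groups: the mean deviation of the 10 genes from their own averages was lowest in control library 1, at -0.12 on the log2 scale, and highest in KO library 1, at 0.101. Control library 1 held the lowest value for 4 genes, *Ctsa*, *Ctsf*, *Ctsz* and *Cst3*, and KO library 1 held the highest value for 4, *Ctsa*, *Ctsb*, *Ctsk* and *Ctsz*. Control library 3, with 9 of the 10 genes above their mean, and KO library 2, with 1 of 10, showed that both groups held libraries at either end.

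**Figure D3:**
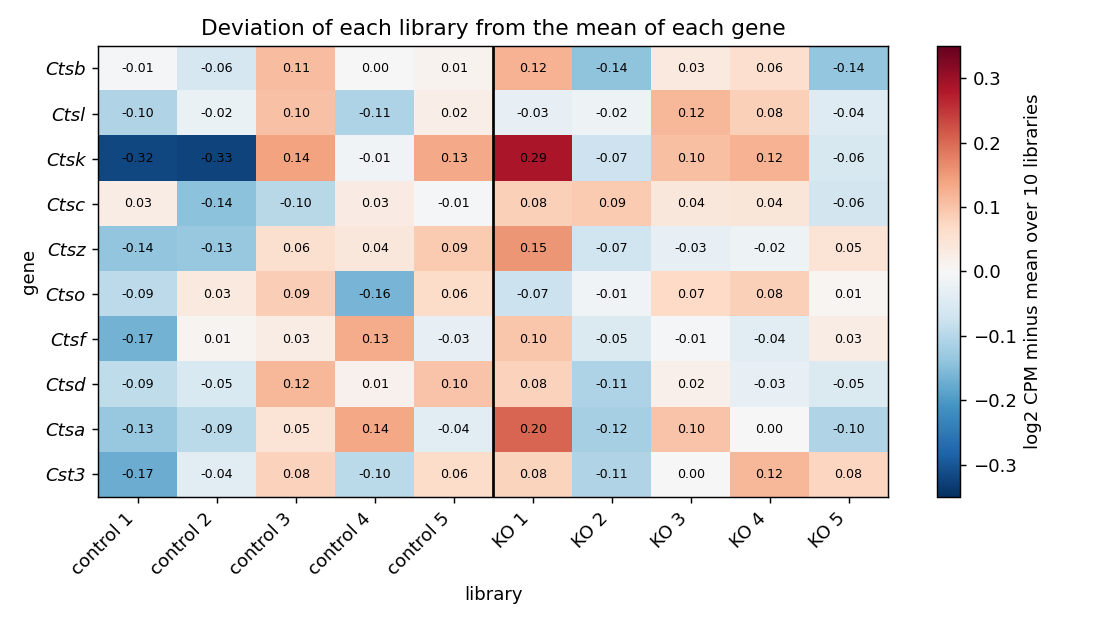
Deviation of log2 CPM from the mean over 10 libraries (colour and printed value) for each gene (rows) and library (columns), with a line between control and KO. Columns differ from each other within both groups, from mostly below the mean in control 1 and KO 2 to mostly above it in control 3 and KO 1, and Ctsk has the largest deviations.

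Levels of different genes were compared per length, as CPM divided by the kilobases of all exons of the gene in GENCODE M21. On this scale *Ctsb* (340 ± 21.0 CPM per kb, SD, n = 10) and *Ctsd* (332 ± 18.2) were highest and did not differ beyond their spread, with *Ctsb* above *Ctsd* in 8 of 10 libraries. They stood at ranks 107 and 112 of 14096 tested genes with a length. *Cst3* followed at 259 ± 17.5 and *Ctsz* at 142 ± 9.39 CPM per kb, each order kept in 10 of 10 libraries. *Ctsl* (85.8 ± 4.78) and *Ctsk* (81.4 ± 10.9) were alike, in this order in 7 of 10 libraries. *Ctsa* (52.0 ± 4.32) and *Ctsc* (32.5 ± 1.72) came next. *Ctso* (10.5 ± 0.603) and *Ctsf* (9.44 ± 0.531 CPM per kb) were lowest and overlapped, at ranks 3954 and 4294. The order rests on the length used. With the length of the principal transcript alone, *Ctsl*, whose exons cover 6489 bases but whose principal transcript has 1971, rose from place 5 to place 4 at 283 ± 15.7 CPM per kb, and *Cst3*, at 381 ± 25.8, passed *Ctsd*, at 367 ± 20.1. *Ctsc* and *Ctsa*, and *Ctsf* and *Ctso*, also changed places.

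**Figure D4:**
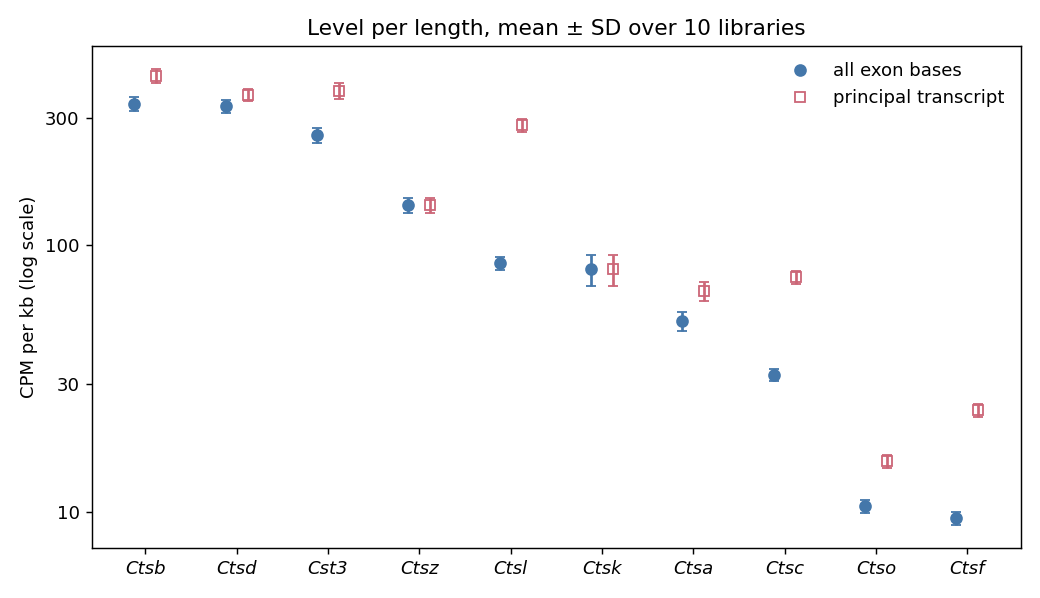
CPM per kilobase (y axis, log scale) of the 10 genes (x axis), as mean and SD over 10 libraries, scaled by all exon bases (filled circles) or by the principal transcript (open squares). Ctsb is highest on both scales, Ctso and Ctsf are lowest on both, and Ctsl moves most, from 85.8 to 283.

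Some of these counts may be shared with, or lost to, neighbours on either strand. The strand setting of the counting was not given, and such a setting would not separate genes on the same strand. *Ctsl* shares the most, 2137 of its 6489 exon bases, with *Gm47123* on the opposite strand and *Gm49230* on the same strand, both at 0 CPM in every library. *Ctsb* shares exon bases with *Fdft1*, *Ctsa* with *Pltp* and *Neurl2*, and *Ctsz* with *Nelfcd*, all on the opposite strand. *Fdft1* had 71.2 to 82.2 CPM and *Pltp* 110 to 142 CPM, with overlapping groups. *Gm49369*, which shares 808 of the 2351 exon bases of *Ctsd* on the same strand, had 0 CPM in every library. How reads on shared bases were assigned was not given. A level of 0 CPM for such neighbours therefore does not show that the counts of *Ctsl* and *Ctsd* were unaffected. *Ctsf*, *Ctsk*, *Ctso* and *Cst3* overlap no other annotated gene.

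*Ctsh*, an aminopeptidase of the same papain-like family, differed from these genes. It had 88.3, 88.5, 94.95, 85.7 and 98.6 CPM over the control cultures, and 59.9, 51.1, 55.1, 61.0 and 56.0 CPM over the KO cultures, with no overlap, and fell by 37.9% (log2 fold change -0.69, 95% interval -0.81 to -0.56, adjusted p = 5.3e-05). The upper bound of its interval lay below the lowest bound of the 10 genes, -0.15. *Ctss*, an elastin-cleaving cathepsin known from macrophages and other antigen-presenting cells, had 87.4 to 125 CPM in the controls and 78.6 to 135 CPM over the KO cultures and a log2 fold change of 0.00 (95% interval -0.32 to 0.33), a wider interval than for any of the 10 genes. *Ctse*, *Ctsw* and the 10 other cathepsin genes listed, most of them known from placenta, were too low to test, and those 10 were at 0 counts in all libraries.

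Of 19 other cystatin family genes listed, 10 were at 0 counts in all libraries, 5 were tested and 0 passed the limit. *Cstb*, the intracellular inhibitor cystatin B, was the most counted of them, at 101 ± 10.2 CPM in control and 100.4 ± 7.09 CPM in KO (SD, n = 5), with a log2 fold change of -0.01 (adjusted p = 0.98). The lowest p-values were those of the kininogen genes *Kng1*, at 1.27 ± 0.528 CPM in the controls and 2.49 ± 0.476 CPM with KO (SD, n = 5; log2 fold change 0.99, adjusted p = 0.0809), and *Kng2*, at 8.25 ± 2.02 and 11.6 ± 0.957 CPM (log2 fold change 0.50, adjusted p = 0.111). *Fetub*, a liver fetuin, had a log2 fold change of 0.37 (adjusted p = 0.644). These 3 genes encode secreted proteins, and *Ahsg*, the remaining gene tested, had a log2 fold change of 0.28 (adjusted p = 0.702).

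Besides *Ctsh*, *Acp5* was the only gene of the lysosomal lists to pass the limit. Of 39 other lysosomal hydrolases tested, 0 were lower and 1 was higher, against 1.86% and 0.308% of all genes, with a median log2 fold change of -0.024. The gene that passed was *Acp5*, the tartrate-resistant acid phosphatase of osteoclasts and macrophages, at 19.2 ± 1.88 CPM in the controls and 27.1 ± 4.64 CPM with KO (SD, n = 5; log2 fold change 0.49, adjusted p = 0.0337). Its libraries overlapped, and its call was lost in 9 of 18 alternatives, with adjusted p from 0.00141 to 0.0955. Each of 7 single libraries, namely control 1, 2, 4 and 5 and KO 3, 4 and 5, ended the call when left out, with log2 fold changes of 0.46 to 0.53. The phospholipase *Pla2g15* (log2 fold change -0.20, adjusted p = 0.13) and the carboxypeptidase *Prcp* (-0.29, adjusted p = 0.212) did not pass.

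Of 8 activators and lumen cofactors, 0 passed. *Psap*, the precursor of the saposins that present lipids to hydrolases, had 2295 ± 72.3 CPM in the controls and 2171 ± 106 CPM with KO (SD, n = 5; log2 fold change -0.08, adjusted p = 0.552). Of 21 lysosomal membrane proteins, 0 passed, and the lowest p was that of *Tmem106b* (log2 fold change 0.13, adjusted p = 0.332). Of 20 subunits of the V-ATPase, the proton pump that acidifies the lysosome, 0 passed, and *Atp6v0e*, with the lowest p, had a log2 fold change of 0.11 (adjusted p = 0.242). Of 18 genes that sort hydrolases to lysosomes, 0 passed, with *Gga2*, a clathrin adaptor for mannose 6-phosphate receptors, at -0.12 (adjusted p = 0.382). Of 16 regulators of lysosomal genes tested, 0 passed, with the TFEB relative *Tfe3* at -0.12 (adjusted p = 0.336). By the median, none of these 5 groups was further from 0 than -0.037 on the log2 scale. At an unadjusted edgeR p under 0.05 they held 0, 1, 3, 1 and 1 genes, where 11.9% of all genes tested had such a p. Among the other hydrolases it was 4 of 39, and among the other cystatin family genes 2 of 5.

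**Figure D5:**
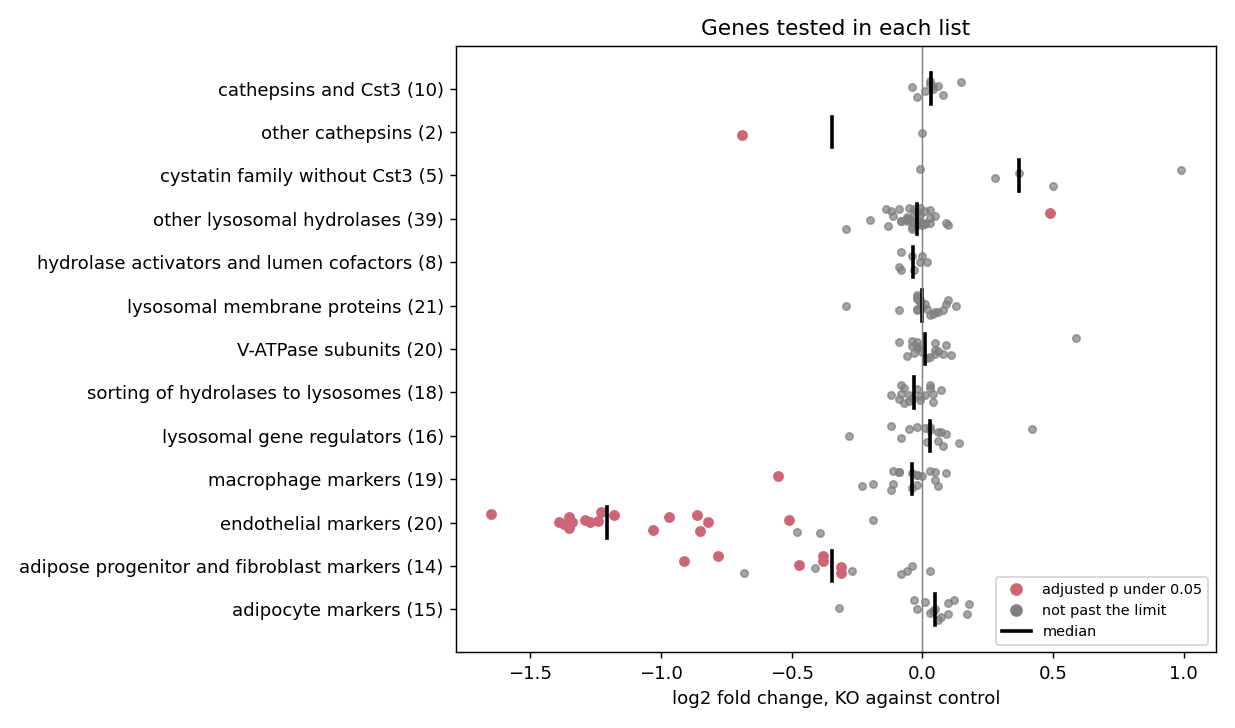
Log2 fold change in KO against control (x axis) of every tested gene in each list (y axis, number tested in brackets), with genes past the adjusted limit in red and the median as a bar. The medians of the cathepsins and the 6 lysosomal lists lie between -0.037 and 0.034, with Acp5 as the only red point among them and a few uncalled genes further out, while 17 of 20 endothelial and 7 of 14 progenitor markers are red and lie below 0.

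The 5 tested genes outside the group whose libraries followed the mean of the 10 genes most closely were *Tm7sf3*, *Rpl26* and *Prdx2* (Pearson r = 0.94), and *Rpl7* and *Mmgt2* (r = 0.93), over 10 libraries. These were picked as the highest of all tested genes, and r describes these libraries only. Their log2 fold changes ran from 0.00 to 0.05.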

How the data were processed

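RNA-seq compared 5 control with 5 KO cultures. The authors aligned paired-end reads to GRCm38.p6 by STAR, used featureCounts with Ensembl genes, and deposited raw counts of each library. Here, genes with few counts were dropped by filterByExpr (at least 10 counts), TMM factors were applied, and KO was tested against control, unpaired, by the quasi-likelihood test of edgeR 4.0.16 (R 4.3.3). Benjamini-Hochberg adjustment covered all genes tested, with a limit of 0.05. All adjusted p-values are from edgeR unless another tool is named. The standard error was taken as the size of the log2 fold change over the root of its F statistic. Log2 CPM used a prior count of 2. Exact permutation tests of log2 CPM used all 252 assignments of libraries and were 2-sided. Exon lengths and positions are from GENCODE M21 (GRCm38), matched by gene identifier without version. The named genes are the 10 members, *Fam20c*, *Ctsh*, *Ctss*, and in each lysosomal or cystatin list the genes past the limit or of lowest p. *Lamp1*, *Npc2* and *Lgmn* are named only as examples of standard errors, and other genes for the reason given beside them. Members and lists were chosen with earlier results of these data known.

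Alternatives were DESeq2 1.42.0, limma voom 3.58.1 with quality weights, RLE and upper-quartile factors, no filter or one of 1 CPM, a replicate block and each library left out; the principal transcript length and the removal of control library 4 with KO library 1 were added after the data were seen. Replicate numbers 1 to 5 come from the library names, and no source pairs them. Scripts were tested on simulated counts whose changes were larger than those of the members, so detection of changes as small as these was not tested. Libraries of a group differed by more than sampling noise.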

Additional observations from a re-analysis of the deposited data

How the results depend on the processing

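Under 18 alternatives, 0 of the 10 genes were called lower and 0 higher, and 172 of 180 log2 fold changes kept their sign. The 8 that turned did so when 1 library was left out, where all members stayed uncalled: *Ctsb* ranged from -0.05 to 0.02, *Ctsf* from -0.03 to 0.05, *Ctsa* from -0.01 to 0.08, *Ctso* from -0.01 to 0.05 and *Ctsz* from -0.00071 to 0.06. Of the members that kept their sign, *Ctsk* ranged from 0.09 to 0.20, *Ctsc* from 0.05 to 0.10, *Ctsl* from 0.02 to 0.08, *Cst3* from 0.03 to 0.10 and *Ctsd* from -0.06 to -0.01. Over all genes, the 44 higher calls became 125 with DESeq2, 111 with limma voom and 145 without control library 4 and KO library 1, and leaving out 1 library gave 19 to 119 higher and 164 to 323 lower calls. The higher count grew by over 1.5 times without control 4 (119) and shrank by as much without control 1 (23), control 3 (24), control 5 (19), KO 2 (23), KO 3 (29), KO 4 (24) or KO 5 (23), and the lower count shrank so without KO 2 (164) or KO 5 (171). No cause of these shifts was tested. A replicate block gave 21 higher calls and no member call; same-numbered libraries did not deviate together (correlations -0.251 to 0.263), so the numbers were not taken as pairs. *Ctsh* stayed called at -0.73 to -0.65. Per kb of principal transcript, levels were 67.3 for *Ctsa*, 434 for *Ctsb*, 75.8 for *Ctsc*, 367 for *Ctsd*, 24.0 for *Ctsf*, 283 for *Ctsl*, 15.5 for *Ctso* and 381 for *Cst3*. By Dixon's ratio, 0 of 34 groups of 5 values had a library standing apart, where chance gives 1.70. These groups were the 10 members, *Ctsh*, *Ctss*, *Fam20c* and the summed marker lists, each in control and in KO. They come from the same libraries and are not independent. Counting error is small at these depths, and the data do not exclude differences inside the 95% intervals.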
